A study of Homo sapiens with 8 samples.

Results

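The genes described are 10 AP-1 and early-response transcription factors, taken by symbol from the 16886 genes with a value above 0 in at least 1 library. They comprise the Fos family (FOS, FOSB, FOSL1, FOSL2), the Jun family (JUN, JUNB, JUND), the related factor ATF3, the zinc finger factor EGR1 and the early-response regulator IER2, and all 10 were measured in all 8 libraries. RNA-Seq was performed on MDA-MB-231, an estrogen receptor-negative line of human breast cancer cells. In 4 libraries, labelled NCML, the cells had been exposed to 1 μM carboxymethyllysine (CML), an advanced glycation end product, for 48 hours, and in 4 control libraries they had received PBS; both groups were kept in low-glucose medium. The comparison asks whether CML altered the transcripts of these factors in a single cell line.

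AP-1 is a dimer of basic leucine zipper (bZIP) proteins. Fos proteins pair with Jun proteins, Jun proteins also pair with each other, and ATF3 can pair with Jun proteins. The dimers bind the TPA response element (TRE) or the cAMP response element (CRE) in promoters and enhancers. FOS, FOSB, JUN, JUNB, EGR1, ATF3 and IER2 are immediate-early genes, which growth factors, serum or stress switch on within minutes and which then decay. FOSL1 and FOSL2 respond later and stay on under sustained MAPK signaling, and FOSL1 is the prevailing Fos protein of mesenchymal breast cancer cells.

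The sequences upstream of 5 members are shown because these members carry the results below or hold the elements through which this family is known to be switched on. RefSeq promoter windows on GRCh38.p14, each 300 bases with 250 bases before the gene's start, were found for 9 members and not for FOSL1. The windows were searched on both strands for the TRE TGACTCA, the CRE TGACGTCA, the shorter letters TGACGT that the CRE also contains, the JUN-type element TGACATCA and the CArG box, the site of serum response factor. Of all 35116 windows, 4.95% held the TRE, 1.85% the CRE, 7.98% TGACGT, 2.61% TGACATCA and 1.29% a CArG box. Capitals mark these letters, or their reverse complement, in the 250 bases before the start, written 5′ to 3′ on the gene's strand. FOSL2 is at chr2:28392608-28392857 (plus strand), JUND at chr19:18281623-18281872 (minus strand), JUN at chr1:58784048-58784297 (minus strand), FOS at chr14:75278578-75278827 (plus strand) and EGR1 at chr5:138465229-138465478 (plus strand).
FOSL2: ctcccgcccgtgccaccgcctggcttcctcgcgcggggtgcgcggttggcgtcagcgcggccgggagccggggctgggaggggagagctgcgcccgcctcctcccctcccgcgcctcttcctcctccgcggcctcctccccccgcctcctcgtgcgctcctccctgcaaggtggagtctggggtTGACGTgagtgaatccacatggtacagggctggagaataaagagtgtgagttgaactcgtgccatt
JUND: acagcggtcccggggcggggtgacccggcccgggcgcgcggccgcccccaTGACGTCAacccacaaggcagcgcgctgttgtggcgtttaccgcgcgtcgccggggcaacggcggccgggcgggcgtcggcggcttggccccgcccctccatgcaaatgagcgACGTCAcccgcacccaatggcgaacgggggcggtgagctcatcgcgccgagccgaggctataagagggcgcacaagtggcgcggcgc
JUN: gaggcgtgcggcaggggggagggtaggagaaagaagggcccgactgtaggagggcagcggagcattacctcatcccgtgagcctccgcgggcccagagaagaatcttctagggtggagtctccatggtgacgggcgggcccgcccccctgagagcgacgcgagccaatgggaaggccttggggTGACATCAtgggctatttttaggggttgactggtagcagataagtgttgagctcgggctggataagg
FOS: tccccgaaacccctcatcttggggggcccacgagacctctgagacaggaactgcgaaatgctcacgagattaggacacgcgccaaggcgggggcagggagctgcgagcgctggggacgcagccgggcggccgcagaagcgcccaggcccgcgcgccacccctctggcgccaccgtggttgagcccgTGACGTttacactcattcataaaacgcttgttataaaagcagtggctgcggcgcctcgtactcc
EGR1: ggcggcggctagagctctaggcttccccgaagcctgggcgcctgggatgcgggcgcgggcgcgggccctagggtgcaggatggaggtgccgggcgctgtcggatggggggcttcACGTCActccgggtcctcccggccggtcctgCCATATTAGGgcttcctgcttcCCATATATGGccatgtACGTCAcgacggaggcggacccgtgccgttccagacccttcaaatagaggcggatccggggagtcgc
FOSL2 also held the TRE just after its start, beginning at base 5 of the transcript (chr2:28392852-28392878, plus strand).
FOSL2 site: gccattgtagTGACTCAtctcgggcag
Among these windows only that of JUND held the full CRE, at base −200, and only that of EGR1 held CArG boxes, at bases −105 and −83. In JUN the element TGACATCA began at base −67, and the ATF3 window at the first of its 2 listed starts held the same letters at base −123. FOSB had TGACGT at base −60, as FOS had at base −64. The JUNB and IER2 windows held none of these letters. A match describes letters in the window, not occupancy. Bases farther than 250 before the start were not searched, so a window without a match does not show that the gene lacks the site.

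The deposited values are CPM (reads of a gene scaled to a common library total). Values fall on steps from which the reads behind them can be estimated. They came to between 16161805 and 18954735 per library, and every value of the 10 members lay within 0.05 of a whole read. The identity of the line was seen in VIM, at 4014 to 4243 CPM, and in AXL, CD44 and MSN, whereas PGR and FOXA1 did not exceed 0.114 CPM. Of the other genes expected to be low, CDH1 and TFF1 did not exceed 0.954 CPM, but GATA3 had 3.47 to 5.61 CPM and EPCAM 12.7 to 16.3 CPM. Of the 8 genes analysed that mark blood, endothelial, liver or fibroblast cells, CD68, a lysosomal gene, had 152 to 181 CPM, COL1A1 9.40 to 13.3 CPM and PECAM1 2.36 to 3.84 CPM, and the others did not exceed 1.37 CPM. The summed level of these markers was 175 to 197 CPM in control and 167 to 189 CPM in NCML libraries.

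Per kilobase of the canonical transcript, the only scale on which levels of different genes are compared here, FOSL1 stood highest at a mean level of 172 CPM per kb over the 8 libraries. IER2 followed at 49.7 CPM per kb, and then JUND at 24.8, JUNB at 17.8, FOSL2 at 16.6, JUN at 10.9, ATF3 at 10.03, EGR1 at 4.64, FOS at 1.42 and FOSB at 0.830 CPM per kb. The ranges over libraries overlapped for JUND and JUNB (18.8 to 31.8 and 12.8 to 22.4 CPM per kb), though JUND stood above JUNB within every library. They also overlapped for JUNB and FOSL2 and for JUN and ATF3, and the order of these genes changed between libraries. The other neighbours did not overlap. FOS itself, the namesake of the family, was covered by 46 to 59 reads per library.

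**Figure D1:**
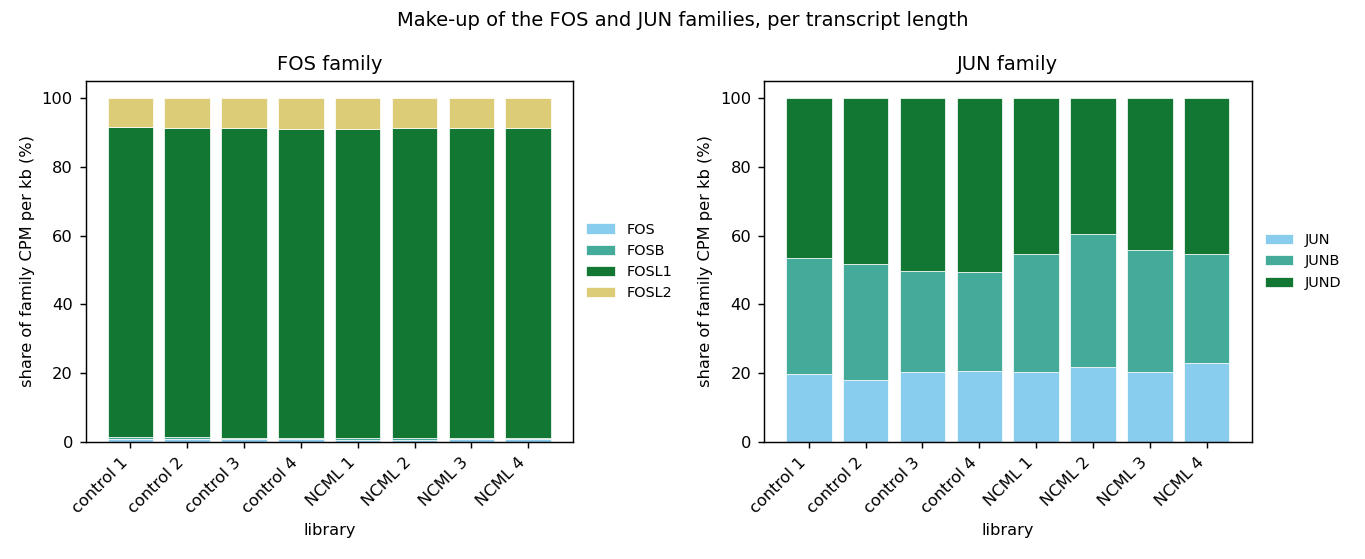
Share of each gene in its family's summed CPM per kb of transcript (y axis, percent) in each of the 8 libraries (x axis), for the FOS family on the left and the JUN family on the right. FOSL1 makes up 89.9% to 90.4% of the FOS family in every library. JUND takes a smaller part of the JUN family in the 4 NCML libraries, though its CPM overlap between the groups.

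Within the Fos family, FOSL1 made up between 89.9% and 90.4% of the summed CPM per kb in each library, FOSL2 between 8.48% and 8.98%, FOS between 0.645% and 0.906% and FOSB between 0.308% and 0.608%. These shares overlapped between control and NCML libraries. In the Jun family the JUND share was 46.6% to 50.7% in control and 39.4% to 45.5% in NCML libraries, and did not overlap. JUNB had 28.6% to 33.9% and 31.6% to 38.8%, and JUN 18.0% to 20.7% and 20.3% to 22.9%, and both of these overlapped. The shares rest on the deposited CPM, with no removal of GC content or length. They were computed after the members' values had been seen and are given without a test.

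At the FDR of 0.3 that the study used for this experiment, 0 of the 10 members differed between NCML and control libraries in limma on log2(CPM + 1), where 102 of all 16886 genes (0.604%) passed, 81 higher (0.48%) and 21 lower (0.124%). At an FDR of 0.05 there were 2 genes (0.0118%) and no member. Leaving out 1 library at a time gave between 3 genes, without NCML replicate 3, and 338 genes, without control replicate 4, and 0 members each time. At an unadjusted p under 0.05 there were 2 members, FOSL1 and FOSL2, both higher with CML, where 1186 genes (7.02%) reached that level and 727 of them (4.31%) were higher. FOSL1 did not reach that level with library medians set equal, with quantile normalization (log2 fold change 0.05 against 0.08), without the variance trend, without control replicate 2 or without NCML replicate 2, and then FOSL2 alone did. The same 2 members were the ones whose 4 NCML values all lay above the 4 control values, which held in that direction for 442 genes (2.62%), or for 396 of the 13047 genes averaging 1 CPM or more (3.04%). In either direction 667 genes (3.95%) had no overlap, 225 of them (1.33%) lower with CML. The median log2 fold change was 0.05 over the 10 members and 0.01 over all genes, and 6 of the 10 were positive. The p-values measure the spread between these libraries, which may be technical, since the sources do not describe how the 4 replicates were separated. In bulk cultures a change in the number of cells that use a gene and a change in its level per cell cannot be told apart.

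**Figure D2:**
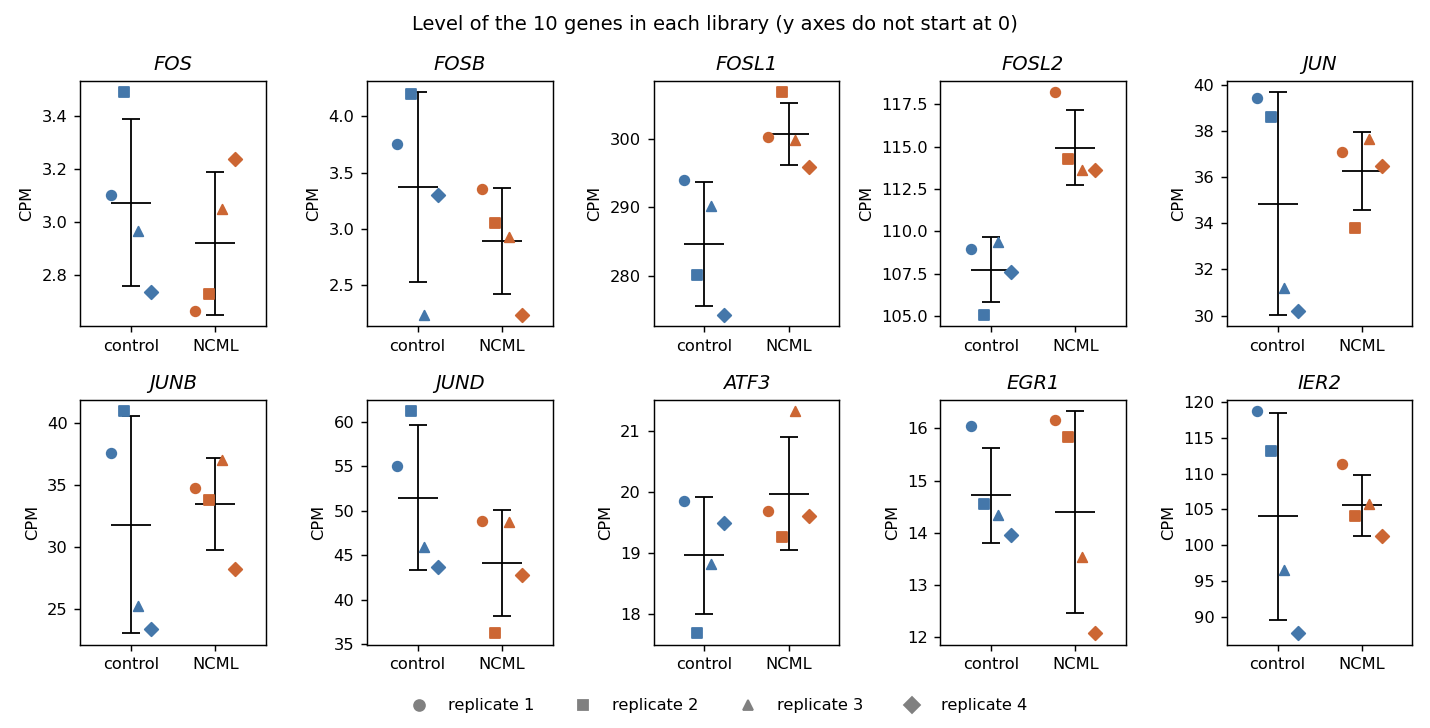
CPM (y axis, not starting at 0) of each of the 10 genes in the 4 control (blue) and 4 NCML (orange) libraries, with the replicate number as the symbol and the mean and SD in black. The groups separate for FOSL1 and FOSL2 and overlap for the other 8 genes.

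FOSL1 (ENSG00000175592.8, chromosome 11 from 65892049 to 65900545 on GRCh38.p14) encodes Fra-1. Its level was 293.9, 280.2, 290.1 and 274.3 CPM in control replicates 1 to 4 and 300.3, 306.8, 299.8 and 295.8 CPM in NCML replicates 1 to 4. The highest control library and the lowest NCML library were 1.91 CPM apart, so the groups met without overlapping. The control libraries averaged 285 ± 8.996 CPM (SD, n = 4) and the NCML libraries 301 ± 4.54 CPM (SD, n = 4), which is 5.64% more. The log2 fold change was 0.08 with a standard error of 0.030 (95% interval 0.01 to 0.15, adjusted p = 0.612 from limma). The 2-sided exact permutation p was 0.0286, the smallest that 4 libraries against 4 allow.

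FOSL2 (ENSG00000075426.12, chromosome 2 from 28392858 to 28417317) encodes Fra-2, the closest relative of Fra-1. Control libraries had 108.9, 105.1, 109.3 and 107.6 CPM and NCML libraries 118.2, 114.3, 113.6 and 113.6 CPM. A gap of 4.26 CPM separated the groups, and NCML replicate 1 stood above the other 3 exposed libraries. The control mean was 108 ± 1.93 CPM (SD, n = 4) and the NCML mean 115 ± 2.21 CPM (SD, n = 4), a difference of 6.68%. On the log2 scale this was 0.09 with a standard error of 0.030 (95% interval 0.03 to 0.16, adjusted p = 0.527 from limma). The exact permutation p was 0.0286. When genes at 0 in every library were kept in the fit, a setting chosen after seeing the data, the same difference had an adjusted p of 0.263, under the FDR of 0.3. FOSL2 overlaps FOSL2-AS1 in RefSeq, and as the sources do not say whether strand was used in counting, reads of the pair may not be separable. FOSL1 and FOSL2 varied together, with a Pearson correlation of 0.82 of log2(CPM + 1) over the 8 libraries, which includes the difference between the groups.

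FOS and FOSB had the fewest reads of the members. FOS (ENSG00000170345.10, chromosome 14 from 75278828 to 75282230) had 3.10, 3.49, 2.96 and 2.74 CPM in control and 2.66, 2.73, 3.05 and 3.24 CPM in NCML libraries, and the groups overlapped almost fully. Its coefficient of variation was 10.3% in control and 9.25% in NCML libraries, where counting error alone gives 14.0%. FOSB (ENSG00000125740.14, chromosome 19 from 45467996 to 45475179) had 3.76, 4.20, 2.24 and 3.31 CPM in control and 3.36, 3.05, 2.93 and 2.24 CPM in NCML libraries. The lowest library of each group had nearly the same level. Its coefficient of variation was 24.9% in control and 16.3% in NCML libraries, above the 13.7% of counting error. The log2 fold changes were −0.05 for FOS and −0.15 for FOSB, and their 95% intervals of −0.28 to 0.17 and −0.49 to 0.19 leave room for a change in either direction.

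JUN (ENSG00000177606.6, chromosome 1 from 58780791 to 58784047), the founding AP-1 gene, had 39.4, 38.6, 31.2 and 30.2 CPM in control and 37.1, 33.8, 37.7 and 36.5 CPM in NCML libraries. All NCML values lay inside the range of the control values. Its log2 fold change was 0.06 (95% interval −0.12 to 0.25, adjusted p = 0.960 from limma).

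JUNB (ENSG00000171223.6, chromosome 19 from 12791486 to 12793315), which often opposes JUN, had 37.6, 41.0, 25.3 and 23.4 CPM in control and 34.7, 33.8, 36.99 and 28.2 CPM in NCML libraries. Control replicates 1 and 2 stood above control replicates 3 and 4, by 1.75-fold from the highest to the lowest, and the NCML libraries lay in between. The log2 fold change was 0.10 (95% interval −0.25 to 0.45, adjusted p = 0.964 from limma). JUNB overlaps HOOK2 in RefSeq, whose level was 16.6 to 20.3 CPM.

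JUND (ENSG00000130522.5, chromosome 19 from 18279694 to 18281622), the Jun gene with the most steady expression in most cells, had a lower mean in NCML libraries. Control libraries had 55.0, 61.2, 45.9 and 43.7 CPM and NCML libraries 48.9, 36.2, 48.7 and 42.8 CPM. Again control replicates 1 and 2 were high, NCML replicate 2 was the lowest library, and no NCML library reached the control mean of 51.5 ± 8.15 CPM (SD, n = 4). The NCML mean was 44.1 ± 5.99 CPM (SD, n = 4). The log2 fold change was −0.21 with a standard error of 0.114 (95% interval −0.46 to 0.04, adjusted p = 0.774 from limma).

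ATF3 (ENSG00000162772.17, chromosome 1 from 212565407 to 212620777), a stress-induced factor, had 19.9, 17.7, 18.8 and 19.5 CPM in control and 19.7, 19.3, 21.3 and 19.6 CPM in NCML libraries. All 4 NCML values were above the control mean of 19.0 ± 0.958 CPM (SD, n = 4), and 1 was above the highest control value. Its log2 fold change was 0.07 (95% interval −0.07 to 0.21, adjusted p = 0.913 from limma).

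EGR1 (ENSG00000120738.8, chromosome 5 from 138465479 to 138469303), a factor induced through ERK and serum response factor, had 16.0, 14.5, 14.3 and 14.0 CPM in control and 16.2, 15.8, 13.5 and 12.1 CPM in NCML libraries. The NCML libraries spread to both sides of the control range. The log2 fold change was −0.04 (95% interval −0.25 to 0.17, adjusted p = 0.977 from limma).

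IER2 (ENSG00000160888.7, chromosome 19 from 13150411 to 13154911), an early-response nuclear protein, had 118.8, 113.2, 96.5 and 87.7 CPM in control and 111.4, 104.1, 105.7 and 101.2 CPM in NCML libraries. As for JUN, the exposed libraries all lay within the control range. The log2 fold change was 0.03 (95% interval −0.15 to 0.21, adjusted p = 0.977 from limma). JUN and IER2 had a correlation of 0.92 over the 8 libraries, and JUNB and IER2 of 0.91, the highest between members.

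**Figure D3:**
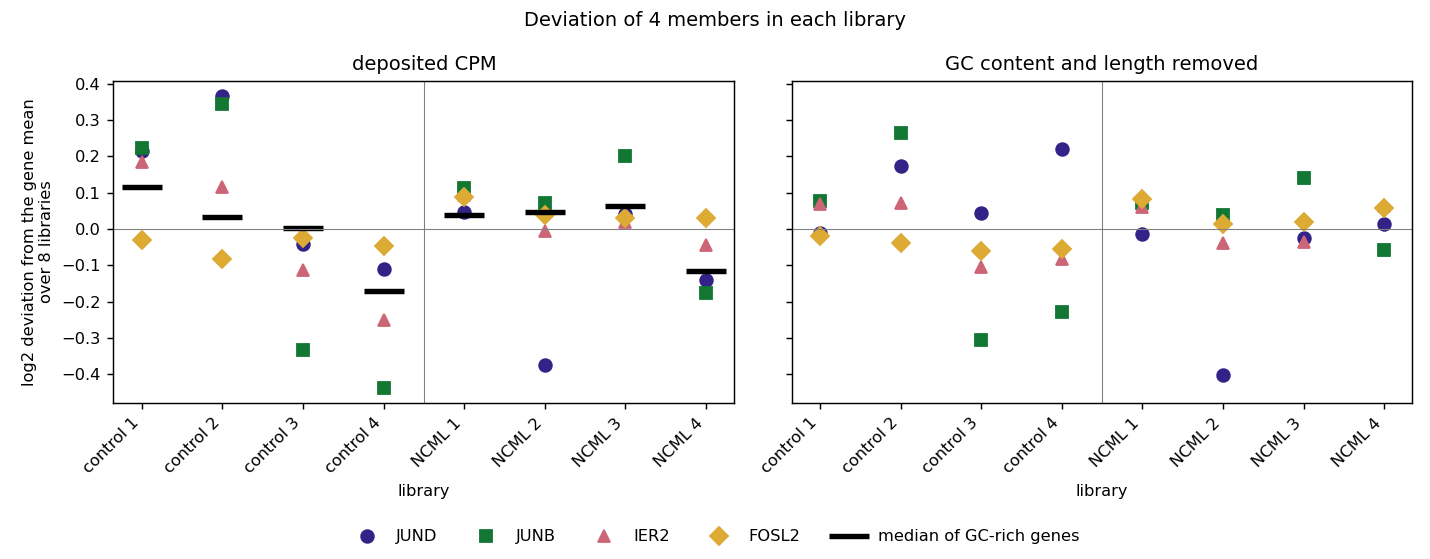
Deviation (y axis, log2) of JUND, JUNB, IER2 and FOSL2 from their mean over the 8 libraries (x axis), in the deposited CPM on the left and with the trend on GC content and length taken out of each library on the right. Black bars on the left are the median deviation of GC-rich genes, which runs from 0.11 in control 1 to −0.17 in control 4.

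The libraries also differed in base composition. JUND, JUNB and IER2 had transcripts of 69.9%, 64.9% and 63.0% GC, at percentiles 99.8, 96.7 and 93.5 of the genes with at least 1 CPM, whose median was 47.9%. Over 1166 other genes with at least 60% GC and 10 CPM, the median deviation from the gene mean was 0.11, 0.03, 0.00 and −0.17 on the log2 scale in control replicates 1 to 4. It was 0.04, 0.05, 0.06 and −0.12 in NCML replicates 1 to 4, so that both libraries numbered 4 were low in GC-rich genes. Over 1750 genes under 40% GC it ran from −0.08 in control replicate 1 to 0.07 in both libraries numbered 4.

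**Figure D4:**
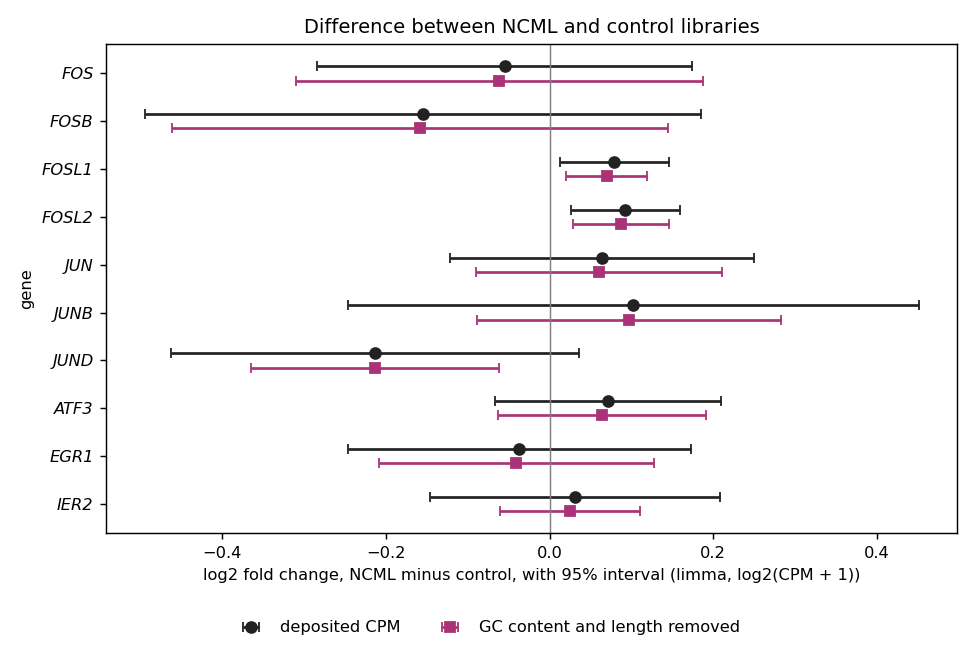
Log2 fold change, NCML minus control (x axis), of each of the 10 genes (y axis) with the 95% interval from limma, in the deposited CPM (black circles) and with GC content and transcript length removed (purple squares). The interval of JUND ends at −0.06 in place of 0.04.

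After the trend on GC content and length had been taken out of each library, 876 of 12929 genes (6.78%) passed the FDR of 0.3, 551 higher (4.26%) and 325 lower (2.51%), and 3 of the 10 members were among them. At an FDR of 0.05 there were 173 genes (1.34%) and no member. FOSL1 was higher by 0.07 (adjusted p = 0.192 from limma), FOSL2 was higher by 0.09 (adjusted p = 0.168) and JUND was lower by 0.21 (adjusted p = 0.196), each on the log2 scale. With this correction FOSL2 kept its groups apart, whereas the groups of FOSL1 and JUND overlapped (exact permutation p = 0.0571 for each). The spread within groups, as an SD on the log2 scale, went from 0.21 to 0.16 for JUND, from 0.30 to 0.20 for JUNB and from 0.15 to 0.08 for IER2. It stayed at 0.15 for JUN. Control replicates 1 and 2 still lay above control replicates 3 and 4 after the correction for JUN (0.12 and 0.15 against −0.20 and −0.19), JUNB (0.08 and 0.26 against −0.31 and −0.23) and IER2 (0.07 and 0.07 against −0.10 and −0.08), but not for JUND (−0.01 and 0.17 against 0.04 and 0.22). The corrected JUND value of NCML replicate 2 was −0.40, while the other NCML libraries had −0.02 to 0.01 and the control libraries −0.01 to 0.22. Without NCML replicate 2 the corrected JUND difference was −0.12 (adjusted p = 0.492), and it was also above the FDR without control replicate 2 (0.335) or control replicate 4 (0.364). FOSL2 lost the call without control replicate 3 (adjusted p = 0.302) or NCML replicate 1 (0.387). FOSL1 lost it without control replicate 1 (0.331), control replicate 2 (0.313), NCML replicate 2 (0.362) or NCML replicate 4 (0.423). Without control replicate 2 the call of JUNB was gained, with a corrected difference of 0.20 on the log2 scale (limma, adjusted p = 0.270) against 0.10 with all libraries (adjusted p = 0.757).

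**Figure D5:**
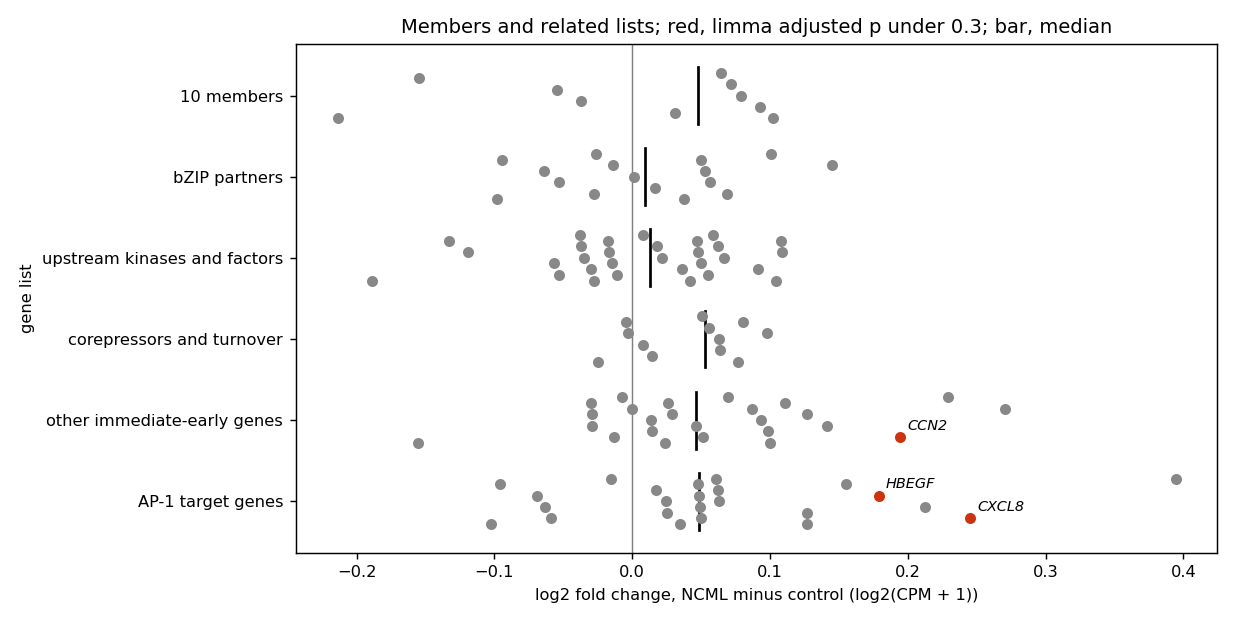
Log2 fold change, NCML minus control (x axis), of the 10 members and of the members of 5 related lists that averaged 0.5 CPM or more (y axis). Red points are genes with a limma adjusted p under 0.3 (CCN2, HBEGF and CXCL8, all higher with CML), and black bars are medians.

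Genes around the factors were taken from fixed lists, which were chosen with earlier results of these data known. Their counts are therefore descriptive, also where a share over all genes is given beside them. Among AP-1 target genes, 2 of 24 passed the FDR of 0.3, both higher with CML, and 22 did not pass. CXCL8, a neutrophil chemokine, rose to 1076 ± 38.6 CPM in NCML from 908 ± 35.7 CPM in control libraries (SD, n = 4 each), or by 0.24 on the log2 scale (limma, adjusted p = 0.0625). HBEGF, a ligand of the EGF receptor, rose to 197 ± 3.32 CPM from 174 ± 5.35 CPM (SD, n = 4 each), or by 0.18 (adjusted p = 0.0708). PLAU, the urokinase gene, differed by 0.13 and the collagenase MMP13 by 0.39 from a level of 0.588 CPM, with adjusted p from limma of 0.383 and 0.388. The list's median log2 fold change was 0.05. With GC content and length removed, 7 of 22 were called higher, where 4.26% of all genes were, and 2 lower, where 2.51% were. The 2 lower genes, named after their values were seen, were the collagenase MMP1 (adjusted p = 0.00902 from limma) and VEGFA, a growth factor for blood vessels (adjusted p = 0.130). Calls of this kind were not particular to the AP-1 targets. Of 6 genes expected to be present in this line, 4 were called higher with the same correction and 0 lower. CD44 is on both lists and was called higher.

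Of the other immediate-early genes, 1 of 25 passed, 24 did not pass, and the median log2 fold change was 0.05. CCN2, a matricellular gene driven by YAP and serum response factor, rose to 298 ± 3.84 CPM in NCML from 261 ± 5.25 CPM in control libraries (SD, n = 4 each), or by 0.19 on the log2 scale (limma, adjusted p = 0.0625). CCN1 (0.11), DUSP1 (0.23), NFKBIZ (0.14) and NR4A1 (0.27, from a control mean of only 1.27 CPM) had log2 fold changes in the same direction. These genes had no overlap of the groups, and adjusted p from limma of 0.338 to 0.575. They were named because their p-values were the smallest in the list after that of CCN2. With CCN2, 5 of the 25 genes had no overlap, where 3.95% of all genes had none, 2.62% being higher with CML. DUSP1 encodes a phosphatase that switches off MAP kinases. It had 22.2, 24.1, 22.5 and 23.3 CPM in control and 25.2, 29.0, 26.1 and 28.2 CPM in NCML libraries. With GC content and length removed, 5 of 24 were called higher, where 4.26% of all genes were, and 0 lower. So were 4 of the 6 identity genes, as given above.

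The partners and upstream genes gave few differences. Of 16 bZIP partners 0 passed the FDR of 0.3 in limma and 0 reached an unadjusted p under 0.05. The smallest p belonged to MAFF, ATF7, ATF2, ATF1 and MAFK, with log2 fold changes from −0.10 for ATF7 to 0.10 for MAFK. Of 30 upstream kinases and factors 0 passed, and 2 reached an unadjusted p under 0.05, where 7.02% of all genes did. These were MAPK13, a p38 kinase, with 116 ± 2.30 CPM in NCML and 127 ± 4.36 CPM in control libraries (log2 fold change −0.13, adjusted p = 0.311 from limma), and MAP2K1, the ERK kinase MEK1 (0.11, adjusted p = 0.655). ELK3 (0.05) and MAP2K3 (0.09) had larger p-values. After removal of GC content and length MAPK13 was called lower (adjusted p = 0.0143) and MAP2K1 higher (0.261). Of 12 corepressors and turnover genes 0 passed and 0 reached an unadjusted p under 0.05, and SIRT1, NAB1, COP1, ITCH and USP28 had log2 fold changes of 0.05 to 0.10.

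Signs of handling and RNA quality were followed beside the members. Of 10 heat shock genes 0 passed the FDR and 1, DNAJB1, had an unadjusted p under 0.05 (log2 fold change 0.07), and their summed level was 2846 to 2996 CPM in control and 2976 to 3053 CPM in NCML libraries. The 11 mitochondrial and nuclear-retained transcripts summed to 16694 to 19894 CPM in control and 15113 to 17991 CPM in NCML libraries. All 11 had a negative log2 fold change, with a median of −0.14. In limma 0 of these 11 passed and 4 had an unadjusted p under 0.05, where 7.02% of all genes did. With GC content and length removed 11 of 11 were called lower, where 2.51% of all genes were. The part of these transcripts in the differences of FOSL1, FOSL2 and JUND was not tested.

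By likeness over the 8 libraries, JUND was the member closest to FOS, at a Pearson correlation of 0.63, as JUNB was to FOSB (0.63), FOSL2 to ATF3 (0.57) and FOSB to EGR1 (0.58). Among the 9410 genes averaging 10 CPM or more, the patterns most like that of FOSL1 were those of RAD51D, AMOTL2 and CD82, with correlations of 0.98, 0.97 and 0.96. For EGR1 they were AP1S1, TMEM39B and CDK10, with 0.96, 0.96 and 0.95. The libraries share the difference in base composition given above, and these values describe 8 points each. They were picked as the highest among the genes or members compared and were not tested.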

How the data were processed

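RNA-Seq values of 4 control and 4 CML-exposed (NCML) MDA-MB-231 libraries were analysed, grouped and numbered by the sample titles. The authors deposited CPM values, 1 column per library. The submitters' processing notes name edgeR and hg38, and the study's methods describe TMM-scaled CPM, also as the input of its gene set analysis of cell lines. The aligner and counter for these cells are not given in the sources used here, and the labels and the study's methods name different sequencers. Of the values above 0, 86.2% to 87.2% per library were whole reads within 0.05 of a read, so no count test was run. 1 read was worth 0.0535 to 0.0622 CPM, which limits the precision of the low members.

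The 17681 rows were averaged by symbol to 17649 genes. The 16886 genes above 0 in any library were tested as log2(CPM + 1), which understates the change of low genes, with limma 3.58.1 in R 4.3.3 (trend, no covariates, Benjamini-Hochberg adjustment over all genes). For single members, an exact permutation test (2-sided) ran through all 70 labellings of the libraries. GC content and length came from canonical GENCODE transcripts on GRCh37 and were removed per library by natural splines with 4 degrees of freedom, over genes averaging 1 CPM or more. Promoters, positions and overlaps came from RefSeq on GRCh38.p14. The code was tested on simulated data, and figures were drawn with matplotlib 3.10.9.

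The members and lists were chosen with earlier results of these data known. The text names all members, the 5 genes of smallest p in each list of pathway genes among those averaging 0.5 CPM or more, and the 3 genes most like FOSL1 and EGR1. FOSL2-AS1, HOOK2, the markers of cell type and the gene of the handling list at an unadjusted p under 0.05 are named beside these. Some genes that this rule selects are not reported here. The alternatives were library centring, quantile normalization, another pseudocount, other filters and variance models, a replicate block, removal of GC content and length, and libraries left out.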

Additional observations from a re-analysis of the deposited data

Results flagged for a closer look

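FOSL2 in NCML replicate 1 stood apart from its group. It had 118.2 CPM there and 113.6 to 114.3 CPM in the other 3 NCML libraries, so that its gap to the nearest library was 0.852 of the group's range. Of 20 groups of 4 libraries (10 members in 2 conditions) this was the only such value, and chance gives about 1 in 20. Without NCML replicate 1 the log2 fold change of FOSL2 was 0.08, against 0.09 with all libraries.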

How the results depend on the processing

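No member passed the FDR of 0.3 with library medians set equal, quantile normalization, a pseudocount of 0.1, a mean of at least 1 CPM, rows kept separate, no variance trend, array weights, the replicate block or any library left out. The whole-table count stayed within 1.5 times of 102 genes under the first 6 of these. Its split of 81 higher and 21 lower became 52 and 29 with medians set equal, and 73 and 29 with quantile normalization. It was 244 genes with array weights, 158 with genes at 0 in every library kept (1 member, FOSL2), and 167 without both libraries numbered 4. Leaving out 1 library gave 3 to 338 genes, and each of the 8 moved the count by over 1.5 times.

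The replicate block gave 271 genes, and 925 with GC content and length also removed (3 members). The numbers were not taken to pair the libraries, and the block is given as an alternative only. Correlations of same-numbered deviations ran from −0.0645 to 0.334, with a mean of 0.110. Those of other pairs ran from −0.304 to 0.113, with a mean of −0.0362. The highest same-numbered values were 0.334 for replicates 4 and 0.199 for replicates 1, so a pairing of some libraries was not excluded. GC content and length removed gave 876 genes and 3 members, and GC content alone 782 genes and 3 members. Without 1 library each, GC content and length removed gave 814, 818, 682 and 716 genes (2 members each, JUNB among them without control 2) for controls 1 to 4, and 526, 455, 579 and 720 genes (2, 1, 3 and 2 members) for NCML 1 to 4. These single-library, GC-alone and zero-gene settings and the control pairs were chosen after seeing the data.

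With control replicates 1 and 2 left out together limma called 0 genes, and 1387 of all 16886 had an unadjusted p under 0.05. FOS (0.0238), FOSB (0.0520) and EGR1 (0.0148) turned positive. The largest values there were 0.44 for JUNB, 0.23 for JUN and 0.20 for IER2, and 5 members had an unadjusted p under 0.05. With control replicates 3 and 4 left out together limma called 645 genes, and JUN (−0.10), JUNB (−0.23) and IER2 (−0.13) turned negative. JUND was −0.40 and FOSB −0.36 there, and 4 members had an unadjusted p under 0.05, where 2046 of all 16886 genes did. Without both libraries numbered 4, JUN was −0.00240, EGR1 0.0157 and IER2 −0.0271. Leaving out 1 library moved JUN from 0.000585 to 0.125, JUNB from −0.0263 to 0.234, EGR1 from −0.0918 to 0.0388 and IER2 from −0.0469 to 0.0980. It moved FOS from −0.0951 to −0.00684, FOSB from −0.292 to −0.0645, JUND from −0.286 to −0.124 and ATF3 from 0.0400 to 0.0931. With GC content and length removed, EGR1 was 0.0186 without NCML replicate 4 and IER2 −0.00559 without control replicate 3. ATF3, FOSL1, FOSL2 and JUND kept their direction under each of these alternatives. The cause of these changes was not tested. FOS and FOSB rest on 36 to 71 reads per library.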
